A study of Mus musculus with 18 samples.

Results

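Kdm6a KO and wt cells of the E8 line were compared by RNA-seq at D15 of differentiation, with 2 libraries of each genotype, which are 4 of the 18 libraries of the series. Libraries were chosen by their labels alone, which give the line, the genotype, the day and the replicate. E8 is a female mouse ES line from a cross of C57BL/6J (BL6) with *Mus castaneus* (*cast*), so that SNPs tell the alleles apart, and both genotypes were grown with LIF on inactivated fibroblast feeders and then without LIF in nondirected differentiation as embryoid bodies (EBs). Per the methods, EBs were plated on gelatin after D7 and kept until D15, and E8 was edited at the *Kdm6a* promoter, with a single homozygous KO clone described for RNA-seq at earlier days than these. The D7 and D15 libraries may be of that clone or of another, which the sources used here do not state. For that clone, at an earlier day, the study reports a rise of X-linked expression from both the BL6 and the *cast* X. In the KO libraries used here most X-linked genes were almost wholly BL6, as given below. Effects of the deletion and of a clone cannot be told apart. The wt libraries carry no edit per their labels, and no E8 line that went through CRISPR without an edit was analysed here. A total of 4 E8 libraries at D7, again 2 wt and 2 KO, served to estimate the spread and to compare the days. The labels do not say that replicates came from separate cultures, so p-values measure the spread between these libraries, which may be technical.

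KDM6A (UTX) is an X-encoded demethylase that removes methyl groups from lysine 27 of histone H3, a mark laid down by Polycomb repressive complex 2, and it also acts within the MLL3 and MLL4 complexes at enhancers. It escapes X inactivation in mouse and human. When ES cells leave pluripotency in EBs, a Nodal, Wnt and BMP driven primitive streak gives rise to mesoderm and definitive endoderm, while primitive endoderm gives visceral and parietal endoderm, which secrete apolipoproteins and basement membrane.

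The files give TPM (transcripts scaled to a fixed total), a level corrected for gene length, without read counts, so the depth is unknown and no counting error or detection limit can be given. A fold change is the difference of mean log2(TPM + 1), KO minus wt, and understates the change of genes at low levels. A gene was called with limma at an FDR of at most 0.1 and a change of at least 2-fold. In counts of a list, rose and fell mean called higher and called lower. The 12452 genes tested were those that reached 2.5 TPM in 2 or more of the 8 E8 libraries. An exact permutation test of 2 against 2 libraries cannot go below 2 of its 6 possible arrangements, so no single gene was tested that way.

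*Kdm6a* (chromosome X, 18162575 to 18279936, forward strand, mm10) was at 47.8 and 47.5 TPM in wt and at 0.0199 and 0.00578 TPM in KO at D15. Its log2 fold change was -5.59 (SE 0.05, limma FDR = 7.8e-10), and no KO library came near a wt library. The 250 bases before its start are shown because the methods place the E8 deletion at the promoter (RefSeq, GRCm38.p6, chrX:18162325-18162574, forward strand).

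Kdm6a promoter: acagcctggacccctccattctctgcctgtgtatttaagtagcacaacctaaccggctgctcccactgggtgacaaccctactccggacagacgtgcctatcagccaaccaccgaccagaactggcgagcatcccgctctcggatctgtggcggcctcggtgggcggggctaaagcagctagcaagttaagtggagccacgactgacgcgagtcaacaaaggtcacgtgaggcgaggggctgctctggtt

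The stretch held 15 CpG. Of the other H3K27 demethylases, *Kdm6b* was at 21.0 and 23.1 TPM in wt and 30.2 and 31.0 TPM in KO, a change of 0.46 under the 2-fold limit. The remaining members of the list of H3K27 methylation and MLL3/MLL4 genes, among them the PRC2 partner *Rbbp7* and the MLL subunit *Dpy30*, did not pass, so that *Kdm6a* was the single call among 22 tested.

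Replicates differed by a median of 0.07 on the log2 scale in wt and 0.04 in KO, and correlations across genes were 0.97 and 0.98 within genotypes against 0.91 between them. miRNA and snoRNA entries took 26.5% to 29.7% of TPM in the D15 libraries, and small RNA entries made up 6 of the 12 largest rises and 6 of the 12 largest falls. Most of these were listed at 0 in both libraries of a genotype, such as *Mir18b* with 530 and 343 TPM in wt and 0 in KO, and *Mir1934* with 0 in wt and 317 and 277 TPM in KO. All 4 D7 libraries listed both at 0. Since exact zeros can be failed estimates, no fold is given for them.

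The libraries labelled D15 carried high levels of pluripotency genes. *Pou5f1*, the core pluripotency factor, was at 1865 and 2044 TPM in wt and at 1009 and 984 TPM in KO, and its change of -0.97 missed the 2-fold limit, which it passed without wt replicate 1 (-1.04) and with rescaled libraries (-1.08). *Nanog* was at 638 and 667 TPM in wt and 373 and 372 TPM in KO. *Dppa5a*, an RNA-binding protein of undifferentiated cells, fell from 12451 and 12921 TPM to 5317 and 5114 TPM (log2 fold change -1.28). No gene of this list of 23 was called higher, although 5 had a positive change, of at most 0.67. In the list 3 were called lower, the others being *Fgf4*, the ES cell FGF ligand, by 1.38 and *Dppa2* by 1.07 on the log2 scale. The median of the list was -0.51 against 0.09 over all genes tested. Between 8 and 17 members of the lists for streak, mesoderm, blood and neurons were under 1 TPM in both wt libraries, and the embryonic globins were not tested for low values. Although the methods describe D15 as a day of EB differentiation, the wt libraries labelled D15 held markers of ES cells at high levels. In bulk RNA, fewer cells of a type and less RNA per cell cannot be told apart.

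Chromosomes were not equal between KO and wt. Each allele was scaled to give a BL6 share of 50% at the median autosomal gene. In the deposited values BL6 and *cast* TPM each sum to the same total, so their ratio is not a share of reads. BL6 made up a median of 17.2% to 19.13% of this allelic TPM at autosomal genes. Over the 381 X-linked genes with allelic values, the median BL6 share was 54.3% in both wt libraries and 100% in both KO libraries, a difference of 45.7 points (SD of replicates 0.02, n = 2 per group). The 48 such genes proximal to 15 Mb, up to *Cask*, kept both alleles in KO, with medians of 52.3% and 52.5%. From *Maoa* to the distal end, where *Kdm6a* lies, 290 and 292 of 333 genes were over 95% BL6 in KO against 17 and 14 in wt. *Maoa* itself was at 42.3% and 52.3% BL6 in wt and 100% in both KO libraries, whereas *Cask* was at 35.995% and 41.0% in wt and 50.2% and 46.7% in KO.

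**Figure D1:**
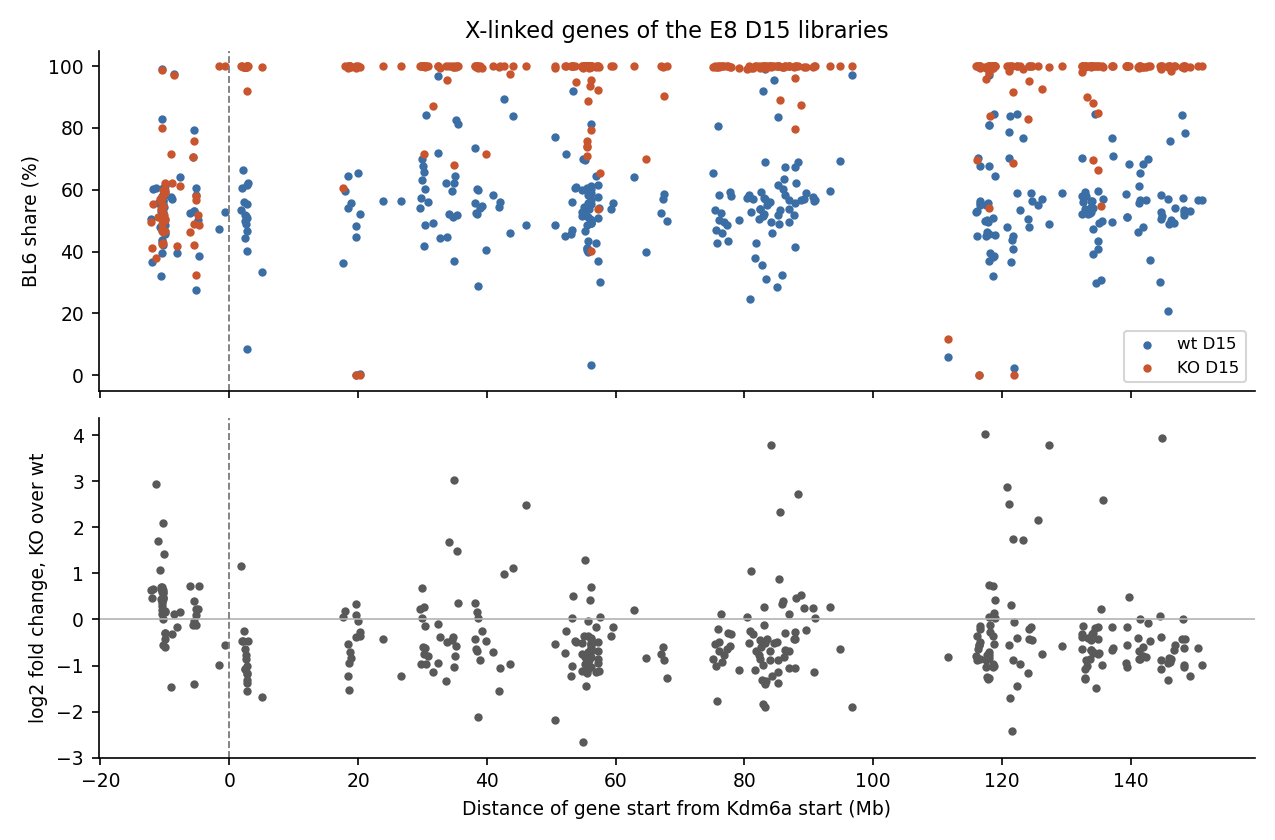
BL6 share (upper panel, percent, mean of 2 libraries) and log2 fold change of KO over wt (lower panel) at D15 for 381 X-linked genes, by distance of the gene start from the start of *Kdm6a* in Mb. Most KO points lie at 100% from just before *Kdm6a* to the distal end and among the wt points proximal to that, and most fold changes are below 0 in the distal stretch.

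Total levels moved with this border. The median log2 fold change was 0.37 over 55 proximal genes and -0.63 over 398 distal genes, and X-linked genes differed from autosomal genes by -0.64, or by -0.18 with no filter on low values. Of the distal genes 21.1% were called lower, compared with 2.46% of autosomal genes. The distal stretch holds *Dusp9*, a phosphatase acting on ERK, which was at 383 and 399 TPM in wt and at 142 and 144 TPM in KO, and *Klhl13*, a ubiquitin ligase adaptor, at 287 and 286 TPM in wt and 86.2 and 90.4 TPM in KO. On chromosome 19 beyond 10 Mb, the BL6 share was 50.2% and 49.9% in wt and 33.0% and 33.1% in KO, with a median fold change of 0.62. On chromosome 12 it was 40.0% and 39.4% in wt and 66.6% and 66.7% in KO, with a median of 0.11. On chromosome 5 from 130 Mb it was 37.6% and 37.8% in wt and 51.3% and 51.7% in KO, with a median of -0.34. Chromosome 1 had even alleles and a median of 0.45. On the other 15 autosomes medians lay between -0.00 and 0.13 and BL6 shares between 45.1% and 53.1%. The D7 libraries had the same shares, with 100% BL6 for distal X-linked genes in KO, and the part of these chromosomes in the results was not tested beyond leaving them out. The genes *Dusp9*, *Klhl13*, *Maoa* and *Cask* were chosen after their values were seen.

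At D15, 1338 genes were called (10.7% of those tested), of which 955 were higher in KO and 383 lower, or 7.67% and 3.08%. The rises made up 71.4% of the calls, and 290 of the 955 were under a mean of 1 TPM in wt. Genes that reached 2.5 TPM in KO libraries only could enter the test through a high KO level, so list counts that include them are given as a description with their number. Without chromosomes 1, 5, 12, 19 and X, 685 rose and 230 fell. Scaling the libraries by median ratios, which moved the median over all genes from 0.09 to -0.02, gave 836 rises and 482 falls.

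Apart from small RNA entries, the largest rise was that of *Igf2*, an imprinted growth factor, from 2.00 and 1.99 TPM in wt to 322 and 330 TPM in KO (log2 fold change 6.77, SE 0.04, limma FDR = 5.8e-10). *Spink1*, a secreted protease inhibitor, followed at 1.31 and 1.02 TPM in wt and 152 and 145 TPM in KO. *Cyp26a1*, which degrades retinoic acid and is switched on in the primitive streak, was at 2.17 and 1.98 TPM in wt and 139 and 138 TPM in KO. *Cyp26a1* lies on the part of chromosome 19 whose genes had a median change of 0.62. The genotypes did not overlap in *Igf2*, *Spink1* and *Cyp26a1*, which the rule for naming them required. Besides *Kdm6a*, the largest falls outside the X chromosome were those of *Tspo2*, a cholesterol-binding membrane protein, at 44.4 and 47.3 TPM in wt and 2.12 and 1.85 TPM in KO, and of *Hsd17b14*, a steroid dehydrogenase, at 127 and 141 TPM in wt and 19.30 and 19.13 TPM in KO. *Otud6a* (fell by 3.31) and *Pnma5* (fell by 2.67) lie in the distal X stretch. *Gm5424* was at 9.98 and 2.48 TPM in wt, so its fall of 2.59 rests on libraries that are far apart.

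**Figure D2:**
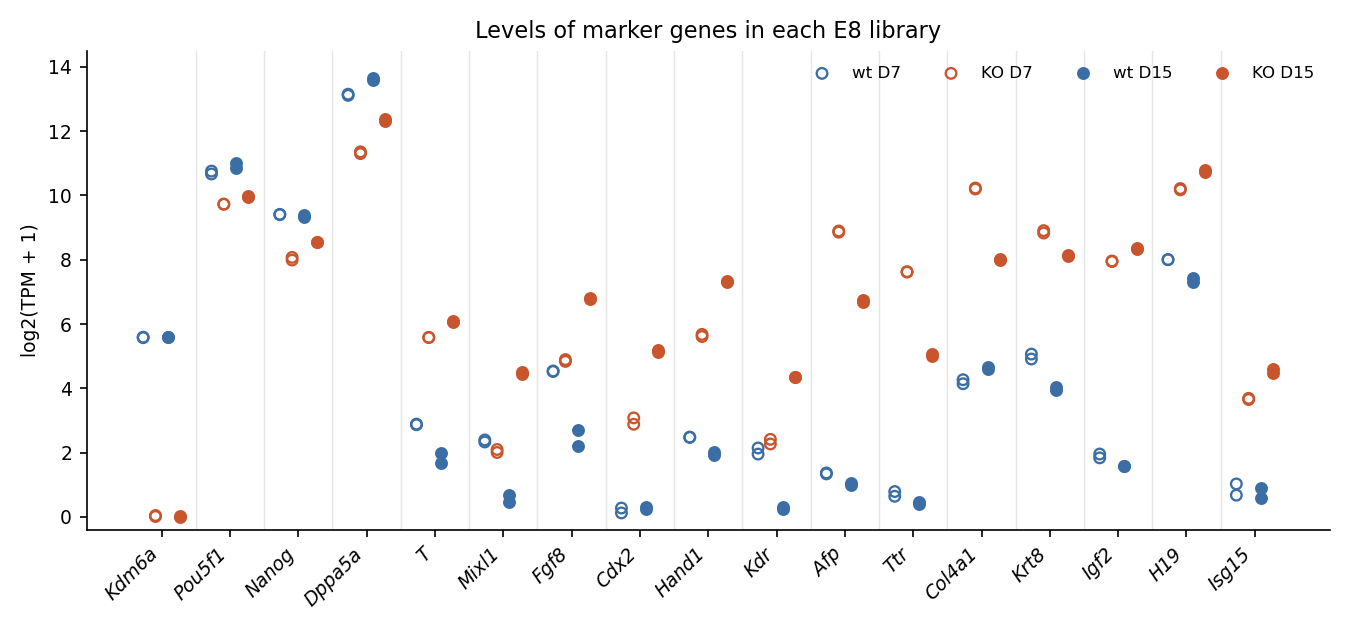
Level of 17 genes as log2(TPM + 1) in each of the 8 E8 libraries, with 1 point per library, open at D7 and filled at D15, blue in wt and orange in KO. At D15 *Kdm6a*, *Pou5f1*, *Nanog* and *Dppa5a* are lower in KO, and the 13 other genes are higher in both KO libraries than in both wt libraries.

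Genes of the primitive streak, the site where mesoderm and endoderm arise, were higher in KO. Of 17 listed genes 13 were tested, 11 were called higher and none lower, and 3 of the 13 reached the filter in KO only. *T* (Brachyury), the streak and notochord factor, was at 2.227 and 2.997 TPM in wt and 66.2 and 67.3 TPM in KO (log2 fold change 4.24, SE 0.09, limma FDR = 3.0e-08). *Cdx2*, a factor of the posterior embryo and of trophectoderm, was at 0.232 and 0.187 TPM in wt and 35.9 and 34.1 TPM in KO. *Fgf8*, the streak FGF, was at 3.62 and 5.58 TPM in wt and 112 and 109 TPM in KO. The KO libraries were far above wt for each of them, and they were named for the size of their change. *Mixl1*, a Nodal target in the streak, rose by 3.89, *Wnt3*, the ligand that starts the streak, by 3.34 and the posterior factor *Evx1* by 3.03. *Eomes*, which specifies endoderm and cardiac mesoderm, rose from 9.65 and 10.0 TPM to 44.0 and 46.5 TPM, and *Mesp1*, a master factor of cardiac mesoderm, rose by 2.58, both named after their values were seen. *Nodal*, the ligand upstream of the streak, did not pass with 64.9 and 70.1 TPM in wt and 45.9 and 45.2 TPM in KO, nor did *Mesp2* at 2.39 to 3.47 TPM. Of the 11 calls, 5 lie on chromosomes with unequal dosage or alleles, and 6 lie elsewhere. *Cdx2* lies on the part of chromosome 5 whose genes had a median of -0.34, and *Fgf8* on the part of chromosome 19 with a median of 0.62. The 250 bases before *T* and before *Afp*, a gene of the visceral endoderm, are shown as the starts of the best known marker of each of the lineages that rose (RefSeq, GRCm38.p6, both on the forward strand). Capitals mark the TCF/LEF motif CTTTGA, read here on the reverse strand, in *T* at chr17:8434173-8434422, and *Afp* is at chr5:90490464-90490713 with no motif marked.

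T promoter: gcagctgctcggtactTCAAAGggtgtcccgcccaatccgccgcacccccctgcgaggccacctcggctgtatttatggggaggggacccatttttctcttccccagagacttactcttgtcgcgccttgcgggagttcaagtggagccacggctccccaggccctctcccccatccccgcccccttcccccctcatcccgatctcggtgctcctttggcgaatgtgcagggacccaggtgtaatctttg
Afp promoter: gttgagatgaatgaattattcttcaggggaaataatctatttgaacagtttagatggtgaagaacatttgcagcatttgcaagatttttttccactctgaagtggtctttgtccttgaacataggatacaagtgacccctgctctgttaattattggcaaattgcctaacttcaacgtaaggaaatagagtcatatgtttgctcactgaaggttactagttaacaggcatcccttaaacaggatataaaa

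Searched on both strands over 27025 promoters of the same length, the motif was in 14.1%. A RefSeq promoter was found for 14 streak genes, of which 3 held the motif. A match describes the letters only.

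Mesoderm beyond the streak was mixed. Of 26 cardiac genes 15 were tested, 6 of them through KO only, and 9 rose and 1 fell. *Hand1*, a factor of lateral and extraembryonic mesoderm, was at 2.82 and 3.05 TPM in wt and 157 and 160 TPM in KO (log2 fold change 5.34). *Hand2* rose by 3.06, *Tbx20* by 2.90 and *Gata4*, shared by heart and endoderm, by 2.67, and the troponin *Tnnc1* rose by 3.39. *Myl2*, the ventricular myosin light chain, fell from 11.7 and 11.9 TPM to 1.65 and 2.34 TPM, and the atrial *Myl7* did not pass at 11.2 and 8.35 TPM in wt and 5.96 and 6.74 TPM in KO. The sarcomere genes *Myh6*, *Myh7*, *Actc1* and *Ttn* were among 11 not tested for low values.

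*Kdr*, the VEGF receptor that marks early vascular and cardiac mesoderm, was at 0.246 and 0.180 TPM in wt and 19.3 and 19.6 TPM in KO. Of 20 endothelial genes 15 were tested, 4 of them through KO only, 4 rose and 1 fell, the others that rose being the receptor *Flt1* (2.88), the haemato-endothelial factor *Etv2* (2.15) and *Sox18* (1.13), and the one that fell *Robo4* (-1.46). *Pecam1*, also on ES cells, was at 92.9 and 105 TPM in wt and at 66.5 and 67.5 TPM in KO and did not pass. Of 18 blood genes 5 were tested, 4 of them through KO only, and the early factors *Runx1* (1.59), *Tal1* (1.55) and *Gata1* (1.18) rose, each to 2.77 to 3.21 TPM in KO, while without wt replicate 1 the change of *Gata1* was 0.95 and under the limit.

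Of 14 genes of paraxial mesoderm 4 were tested, with *Foxc1* up by 1.08 and *Tcf15* down by 1.69. *Tcf15*, known from somites and from ES cells primed to leave pluripotency, was at 82.5 and 83.5 TPM in wt and at 23.1 and 27.1 TPM in KO. In skeletal muscle *Tnnt3*, *Acta1* and *Tnni2*, all tested through KO only, rose to 2.55 to 9.83 TPM, the myosin light chain *Mylpf* fell from 313 and 315 TPM to 90.8 and 96.3 TPM, and the 12 other genes, *Myod1* and *Myog* among them, were not tested. Smooth muscle genes rose in 5 of 7 tested, with *Tagln* from 5.29 and 4.93 TPM to 71.9 and 71.3 TPM and *Acta2* from 0.474 and 0.782 TPM to 16.7 and 17.1 TPM. *Acta2* lies on the part of chromosome 19 with a median of 0.62.

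Endoderm genes were higher in KO. Of 22 genes of the visceral endoderm, an extraembryonic layer that feeds the embryo before the liver forms, 17 were tested, 13 rose and none fell, and 10 reached the filter in KO only. The median of the 17 was 2.92, and the summed level of the list was 80.0 and 80.4 TPM in wt against 488 and 489 TPM in KO. *Afp*, a fetal serum protein, was at 1.08 and 0.984 TPM in wt and at 103 and 106 TPM in KO (log2 fold change 5.70, SE 0.04, limma FDR = 5.8e-10). *Ttr*, a thyroid hormone carrier, was at 0.332 and 0.394 TPM in wt and 32.3 and 31.1 TPM in KO. Neither gene had a wt library near a KO library, and both were named for the size of their change. Apolipoproteins rose as well, *Apoa1* by 4.18, *Apoc2* by 3.16 and *Apob* by 3.13, as did *Cubn*, the endocytic receptor of the layer, by 3.66. *Apoa2* and *Trf* (transferrin) did not pass, the latter at 15.9 and 17.3 TPM in wt and 8.75 and 7.54 TPM in KO.

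Of 17 endoderm factors 16 were tested, 11 rose and 1 fell, and 9 reached the filter in KO only. *Foxa2*, shared by definitive and visceral endoderm, was at 0.392 and 0.331 TPM in wt and at 8.20 and 8.18 TPM in KO, and *Sox17*, a factor of all endoderm, at 0.419 and 0.635 TPM in wt and 8.61 and 7.97 TPM in KO. *Cxcr4*, on definitive endoderm and mesoderm, rose by 1.96. *Hhex* (change 0.81), on the part of chromosome 19 with a median of 0.62, and *Sox7* (0.82) did not pass. Of 15 genes of parietal endoderm and basement membrane, all tested and 3 of them through KO only, 10 rose and none fell. The type IV collagen chains *Col4a1* and *Col4a2* share a start region in opposite directions and rose together, *Col4a1* from 23.4 and 24.3 TPM to 258 and 255 TPM and *Col4a2* from 11.5 and 11.8 TPM to 142 and 143 TPM. The laminin chain *Lama1* rose by 2.88 and the receptor *Pth1r*, of parietal endoderm, by 3.44. *Nid2* and *Lama5*, broader basement membrane genes, did not pass with changes of 0.27 and 0.42.

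**Figure D3:**
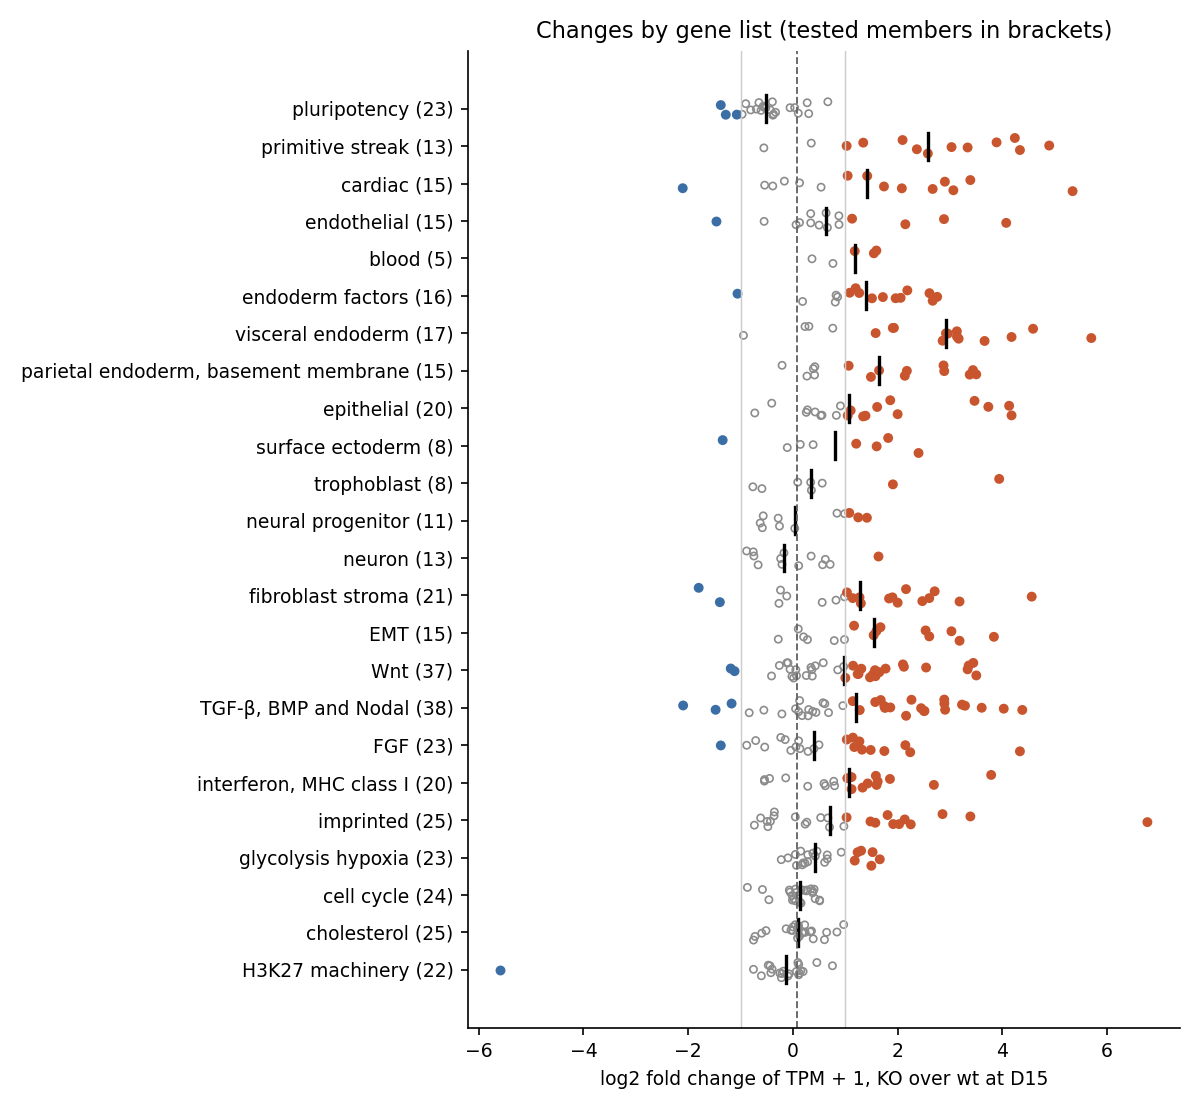
Log2 fold change of KO over wt at D15 for each tested member of 24 gene lists, with orange points called higher, blue points called lower and open points not called. Black bars are list medians, the dashed line is the median over all genes tested (0.09) and grey lines mark 2-fold. The bars of primitive streak (2.58) and visceral endoderm (2.92) lie farthest to the right, and cell cycle and cholesterol genes lie around the dashed line.

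Epithelial genes, all 20 tested, rose in 11 and fell in none, with a median of 1.07. Simple epithelial keratins led, with *Krt8* at 14.6 and 15.6 TPM in wt and 283 and 277 TPM in KO and its partner *Krt18* at 43.5 and 46.0 TPM in wt and 605 and 608 TPM in KO. *Krt19* rose by 4.17 and *Krt7* by 3.47, and the tight junction genes *Cldn6* and *Cldn7* by 2.00 and 1.86. *Cldn4* did not pass, at 282 and 313 TPM in wt and 180 and 178 TPM in KO. Of the surface ectoderm list 8 of 21 genes were tested, 4 rose, with *Sfn*, *Dsp* and *Perp* among them, and the keratinocyte gene *Krtdap* fell. *Krt5*, *Krt14* and *Trp63*, which define basal epidermis, were not tested for low values. In the trophoblast list 2 of 8 tested genes rose, *Elf5* by 3.94 and *Bmp8b* by 1.91, while the placental lactogens and *Gcm1* were not tested.

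Fibroblast and stroma genes rose in 13 of 21 tested of 34 listed, and 2 fell, with 11 of the 21 reaching the filter in KO only. *Col1a1* was at 0.225 and 0.549 TPM in wt and 31.1 and 31.9 TPM in KO, *Vim* at 59.4 and 60.4 TPM in wt and 365 and 374 TPM in KO, and *Pdgfra*, a receptor of early mesoderm, primitive endoderm and stroma, rose by 2.71. *Thy1* fell by 1.80 and *Mfap5* by 1.40, both named after their values were seen. The fibroblast genes *Dcn*, *Lum*, *Lox* and *Mgp* were not tested for low values. Cells were kept on fibroblast feeders before differentiation, and a part of feeder RNA in these levels was not tested. In the list of epithelial to mesenchymal transition (EMT), 9 of 15 tested genes rose and none fell, with 4 of the 15 reaching the filter in KO only. *Cdh2* (N-cadherin) rose from 1.55 and 1.33 TPM to 18.5 and 19.3 TPM, *Snai1*, the repressor of E-cadherin at the streak, by 1.67, *Twist2* by 3.18 and *Cdh11* by 3.84. *Cdh1* (E-cadherin) was at 141 and 153 TPM in wt and 174 and 183 TPM in KO, and *Fn1* missed the 2-fold limit at 0.98 but passed it without wt replicate 2 (1.03).

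Medians of the neural lists were small, and a few members rose. Of 29 genes of neural progenitors 11 were tested and *Nes* (1.41), *Dll3* (1.25) and *En1* (1.08) rose, of 29 neuronal genes 13 were tested and *Nefm* (1.62) rose, and of 17 neural crest and glial genes 7 were tested and *Twist1* (1.17) and *Phox2a* (1.01) rose. Without wt replicate 1 the changes of *En1* and *Phox2a* were 0.96 and 0.79, under the 2-fold limit, as was *En1* at 0.90 without KO replicate 2. *Otx2* was at 75.3 and 78.3 TPM in wt and 62.5 and 63.5 TPM in KO. Medians of the 3 lists were 0.04, -0.17 and 0.11, against 0.09 over all genes tested, of which 7.67% were called higher. In the progenitor list 2 of the 11 tested and in the crest list 1 of the 7 reached the filter in KO only. The cartilage and bone list had 1 call among 8 tested, *Col9a2*, which fell by 2.32. Germline genes, many of which are silenced by DNA methylation, rose in 1 case (*Dnd1*, 1.19) and fell in 4 of 12 tested, with *Dazl* from 14.4 and 13.1 TPM to 4.87 and 5.45 TPM, *Sycp1* by 1.38, *Mael* by 1.26 and *Hormad1* by 1.12. Of 39 *Hox* genes 4 were tested and *Hoxd9* and *Hoxd8* rose, to 6.23 and 6.68 TPM and to 3.83 and 3.94 TPM in KO. All 4 reached the filter in KO only. The list of germ layer genes that the study names for its *Tsix*-stop cells had 20 rises and no fall among 32 tested of 39. Of the 32, 15 reached the filter in KO only. In its *Tsix*-stop cells the study reports a subset of germ layer genes as lower in KO at D15, the other direction. For E8 KO cells at earlier days it reports no clear pattern of lower levels among those expressed.

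Signalling genes rose in several families. Of 53 Wnt genes 37 were tested, 14 of them through KO only, and 18 rose and 2 fell. Among ligands and agonists, *Wnt3* was at 0.309 and 0.299 TPM in wt and 12.3 and 12.1 TPM in KO, *Wnt5a*, a non-canonical ligand, rose by 3.36 and *Rspo3*, which strengthens Wnt reception, by 3.44. Inhibitors rose beside them, *Dkk1* by 3.50 and *Frzb* by 2.54, as did the target *Sp5* by 2.12. The targets *Axin2* (3.77 and 3.94 TPM in wt, 13.5 and 13.4 TPM in KO) and *Lef1* (4.68 and 4.59 TPM in wt, 15.4 and 16.0 TPM in KO) rose and the receptor *Fzd9* and the inhibitor *Sfrp1* fell, by 1.19 and 1.11, and these 4 were named after their values were seen. The receptor *Fzd7* and the factor *Tcf7* did not pass.

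Of 43 genes of TGF-β, BMP and Nodal signalling 38 were tested, 9 of them through KO only, and 20 rose and 3 fell. Ligands of the BMP and TGF-β branches rose, *Bmp2* from 0.284 and 0.496 TPM to 12.2 and 11.8 TPM, *Tgfb2* by 3.61 and *Tgfb1* by 2.91, and *Bmp4*, which drives mesoderm, from 16.3 and 21.3 TPM to 69.6 and 70.9 TPM. BMP targets rose as well, *Msx2* from 0.660 and 1.08 TPM to 36.7 and 38.7 TPM, *Msx1* by 4.03 and *Id3* by 2.89, while *Id1* missed the limit at 0.95. The Nodal inhibitors *Lefty1* and *Lefty2*, themselves induced by Nodal, fell. *Lefty1* was at 314 and 311 TPM in wt and 76.7 and 68.4 TPM in KO, and *Lefty2* at 424 and 421 TPM in wt and 152 and 151 TPM in KO, on a chromosome whose median was 0.45. *Inhbb*, an activin subunit, fell by 1.17. *Bmp4*, *Id3*, *Lefty1*, *Lefty2* and *Inhbb* were named after their values were seen.

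FGF genes rose in 10 and fell in 1 of 23 tested. The ligands *Fgf8*, *Fgf3* (2.24), *Fgf10* (2.15) and *Fgf5* (1.49), of the primed epiblast, and the receptor *Fgfr2* (1.75) rose, and *Fgf4* fell. *Dusp6*, an ERK feedback gene, was at 25.7 and 27.6 TPM in wt and 68.4 and 67.5 TPM in KO, named after its values were seen, and *Etv5* was at 64.7 and 68.6 TPM in wt and 55.9 and 57.2 TPM in KO and did not pass. In the Notch list 4 rose and 3 fell of 15 tested, with the targets *Hey1* (1.31), *Hey2* (1.66) and *Nrarp* (1.13) up with *Dll3* (*Nrarp* named after its values were seen), and *Notch4*, *Mfng* and *Lfng* down by 1.34, 1.19 and 1.14. In the hedgehog list *Gas1* (1.28) and *Ihh* (1.20) rose of 10 tested, and *Smo* and *Ptch1* did not pass. In the retinoic acid list *Cyp26a1* and *Rdh10* (1.78) rose and *Stra8* and *Rarg* fell by 1.40 and 1.24 of 14 tested.

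Genes of MHC class I antigen processing and interferon response rose in 11 of 20 tested, 3 of them tested through KO only, and none fell. *Isg15*, a ubiquitin-like interferon target, was at 0.512 and 0.860 TPM in wt and 21.1 and 23.2 TPM in KO, and the immunoproteasome subunit *Psmb8* at 3.54 and 4.25 TPM in wt and 31.3 and 29.8 TPM in KO. The peptide transporters *Tap1* and *Tap2* rose, the former by 1.85, and *B2m*, the class I light chain, by 1.43, named after its values were seen. *Ifitm2* and *Ifitm3*, both abundant in ES cells, were lower by 0.45 and 0.54 and did not pass. Immediate early genes *Fos* (2.39), *Junb* (2.17), *Egr1* (1.72), *Jun* (1.68) and *Ier3* (1.64) rose, while *Chac1* and *Trib3*, of the ATF4 response, fell by 1.91 and 1.38, *Trib3* named after its values were seen. Glucose and hypoxia genes rose in 6 of 23 tested, with the glucose transporter *Slc2a1* at 164 and 179 TPM in wt and 497 and 489 TPM in KO and *Ndrg1* up by 1.66, while the glycolytic enzymes *Aldoa* and *Pkm* changed by 0.28 and 0.38. *Gdf15* fell by 1.95 and *Phlda3* rose by 1.25 in the p53 list. No gene of the 24 of the cell cycle or the 25 of cholesterol synthesis reached a 2-fold change. Their log2 changes lay between -0.87 and 0.51 and between -0.75 and 0.97. The unadjusted limma p was under 0.05 for 16 and 17 of them. Small changes of this kind were common, since 9745 of the 12452 genes tested passed the FDR limit with no minimum fold.

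Imprinted genes rose in 11 of 25 tested of 29 listed, and none fell. *H19*, the non-coding RNA beside *Igf2* that normally comes from the maternal copy, rose from 157 and 172 TPM to 1691 and 1772 TPM (log2 fold change 3.39), and *Peg3* from 24.0 and 25.8 TPM to 184 and 189 TPM. *Nnat* (2.25), *Plagl1* (2.14) and *Magel2* (2.03) rose too, while *Snrpn* and *Meg3* did not pass.

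Of 17 imprinted genes with at least 5 TPM in every D15 library, 2 had BL6 shares apart by at least 30 points between the genotypes. The BL6 share of *H19* was 54.4% and 55.8% in wt and 1.66% and 1.84% in KO, so that nearly all of its allelic TPM in KO was *cast*. *Mest*, which normally comes from the paternal copy, was at 49.0% and 45.5% BL6 in wt and at 99.6% and 99.5% in KO, with a total of 85.3 and 89.1 TPM in wt and 140 and 138 TPM in KO. The D7 libraries had the same pattern, with *H19* at 55.7% and 57.6% in wt and 3.66% and 3.84% in KO, and *Mest* at 53.6% and 49.5% in wt and 99.0% and 100% in KO. The same difference without overlap was met by 18 of 7066 genes at that level (0.255%) on the autosomes other than 1, 5, 12 and 19, where *H19* and *Mest* had the largest differences. Chromosomes 7 and 6 as a whole were balanced, with median BL6 shares between 49.3% and 51.8% in the D15 libraries. Among genes below 5 TPM in wt, *Igf2* was at 74.6% and 86.8% BL6 in wt and 90.1% and 90.2% in KO, a smaller difference, *Magel2* was at 100% and 81.5% in wt and 57.3% and 61.4% in KO at D15 but between 54.7% and 62.1% in all D7 libraries, and *Dlk1*, on chromosome 12, was at 28.7% and 21.1% in wt and 86.9% and 86.7% in KO. *Phlda2*, another maternally expressed gene, was at 83.2% and 86.8% in wt and 62.3% and 67.3% in KO, without overlap. *Peg3* stayed near balance in both genotypes at 42.0% and 42.0% in wt and 51.4% and 51.9% in KO, *Peg10* at 40.8% and 42.0% in wt and 46.1% and 47.1% in KO, and *Gnas* was at most at 0.407% in all 8 libraries. *Mest*, *Dlk1*, *Phlda2*, *Peg10* and *Gnas* were named after their values were seen.

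**Figure D4:**
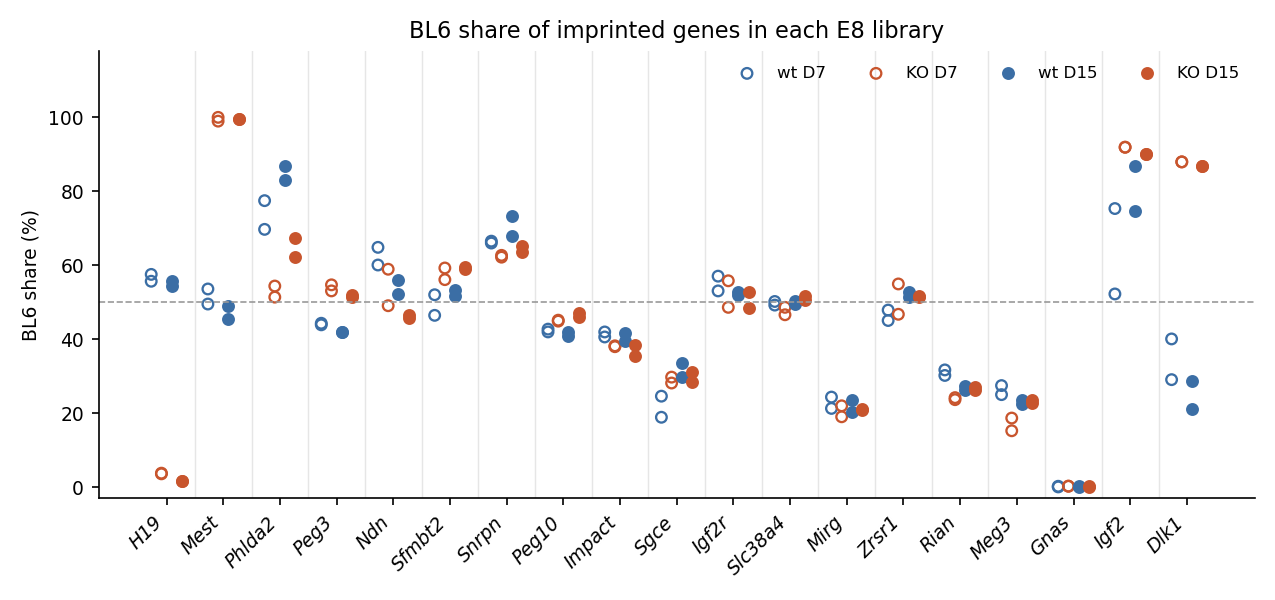
BL6 share in percent of 17 imprinted genes with at least 5 TPM in every D15 library, ordered by the difference between genotypes, and of *Igf2* and *Dlk1* at the right, with 1 point per library, open at D7 and filled at D15, blue in wt and orange in KO. *H19* falls to below 4% and *Mest* rises to 98.98% or more in the 4 KO libraries, from 45.5% to 57.6% in the 4 wt libraries.

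X inactivation genes stayed at low levels. *Xist*, the RNA that coats the inactive X, was at 1.26 and 1.14 TPM in wt and 0.401 and 0.523 TPM in KO and did not pass, with a change of -0.59 that was -1.22 and called with a pseudocount of 0.1 TPM. *Tsix*, its antisense partner, fell from 9.13 and 9.47 TPM to 2.926 and 3.001 TPM. Since the genes overlap and use of strand in counting is not given in the sources used here, reads of the pair cannot be told apart. In wt both X alleles were expressed at D15. Of escape genes, *Kdm5c* was at 59.0 and 62.8 TPM in wt and a mean of 36.2 TPM in KO, below the 2-fold limit, and *Ddx3x*, in the biallelic proximal part, at 371 and 366 TPM in wt and 423 and 442 TPM in KO. Of 11 tested on this list *Pbdc1* (fell by 1.05) was called with *Kdm6a*, and *Bgn* rose by 1.30. *Xist*, *Tsix*, *Kdm5c*, *Pbdc1* and *Bgn* all lie in the distal X stretch, where the median change was -0.63. *Tsix*, *Pbdc1* and *Bgn* were at 100% BL6 in both KO libraries and *Kdm5c* at 99.9% or more. The part of this stretch in their changes was not tested.

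The change at D15 differed from that at D7 for 903 genes (7.25%) by the interaction of genotype and day, 484 (3.89%) with a more positive and 419 (3.36%) with a more negative change at D15. Leaving out small RNA entries gave 781 and 353, so that the more positive side went from 53.6% to 68.9%. At D7 2184 genes (17.5%) were called, 1414 (11.4%) higher and 770 (6.18%) lower in KO, and 936 genes were called on both days in the same direction, which is 70.0% of the D15 calls and 42.9% of the D7 calls. All 11 primitive streak genes called at D15 had a more positive change there than at D7, where 3 were called higher and 1 lower. In *Fgf8* the KO libraries went from 27.6 and 28.7 TPM at D7 to 112 and 109 TPM at D15, while the wt libraries went from 22.25 and 21.999 TPM to 3.62 and 5.58 TPM. *Mixl1* was at 4.26 and 4.03 TPM in wt and 3.01 and 3.28 TPM in KO at D7, and at 0.620 and 0.383 TPM in wt and 20.7 and 21.6 TPM in KO at D15. In these 2 genes the KO level was higher and the wt level lower at D15 than at D7. *Cdx2* rose within KO alone, from 6.38 and 7.46 TPM to 35.9 and 34.1 TPM, with wt at most at 0.232 TPM on both days.

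Most visceral and parietal endoderm genes went the other way. Of 17 tested visceral endoderm genes 14 and of 15 parietal endoderm and basement membrane genes 11 had a less positive change at D15, and none had a more positive one. Of 16 tested endoderm factors 9 had a less positive and 2 a more positive change, *Cxcr4* among the latter. *Col4a1* was at 1175 and 1201 TPM in KO at D7 and at 258 and 255 TPM at D15, and *Afp* at 475 and 463 TPM at D7 and 103 and 106 TPM at D15, while their wt libraries lay between 16.7 and 24.3 TPM and between 0.984 and 1.58 TPM on both days. Median fold changes were 4.22 at D7 and 2.92 at D15 for the visceral list, 4.09 and 1.65 for the parietal list, and -0.02 and 2.58 for the primitive streak list. *Gata6*, a primitive endoderm factor named after its values were seen, was at 59.4 and 57.3 TPM in KO at D7 and 13.3 and 13.9 TPM at D15. Glucose and hypoxia genes had a more positive change at D15 in 10 of 23 and a less positive one in none, with *Bnip3*, a hypoxia target, at 52.8 and 54.5 TPM in wt and 25.9 and 24.5 TPM in KO at D7 and at 20.3 and 17.4 TPM in wt and 44.0 and 43.8 TPM in KO at D15.

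**Figure D5:**
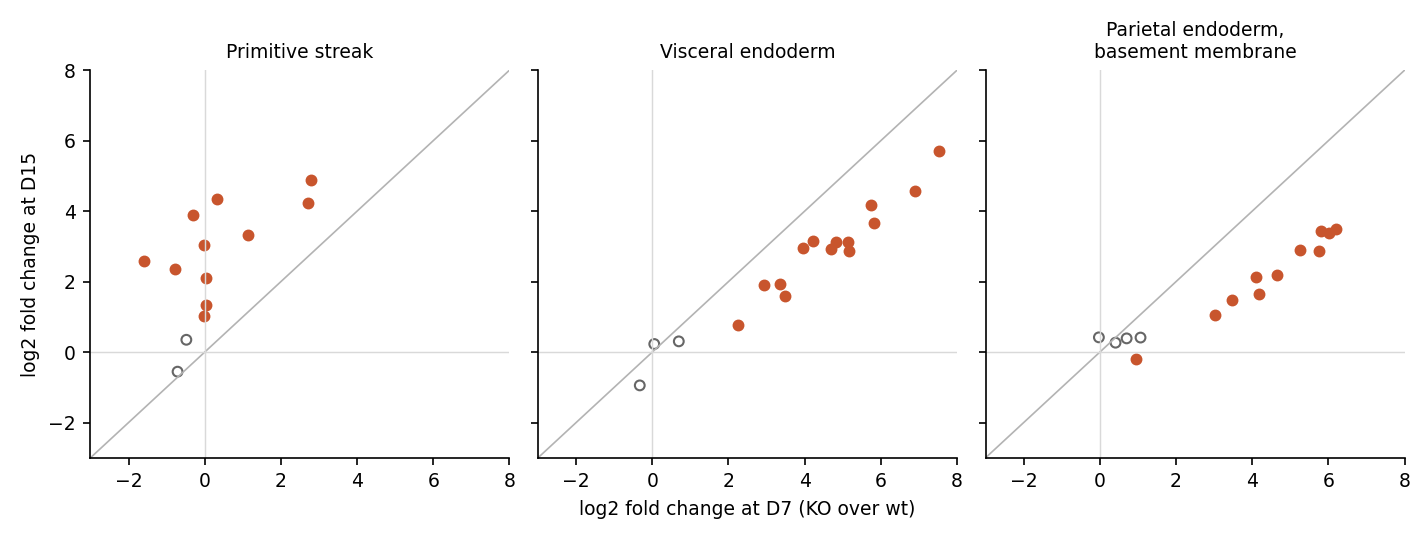
Log2 fold change of KO over wt at D7 (horizontal) and D15 (vertical) for tested members of 3 lists, with orange points where the change differed between the days by limma and a grey line where both are equal. Primitive streak genes that differ lie above the line, and endoderm and basement membrane genes that differ lie below it.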

How the data were processed

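Polyadenylated RNA of E8 cells was sequenced from TruSeq V2 libraries. The authors deposited TPM values per gene, for all reads (diploid) and for SNP reads of each allele, made on mm10, and the submitters' processing notes name Bowtie2 2.4.5 and TopHat2 2.1.1. Read counts were not analysed here, so depth per library is unknown, and strand use in counting is not given in the sources used here. Rows sharing a symbol were summed (24346 symbols), and values were taken as log2(TPM + 1), with a pseudocount of 1 TPM. All 8 E8 libraries were fitted together with limma 3.58.1 (R 4.3.3) with a mean-dependent prior variance, and p-values were adjusted by Benjamini-Hochberg over 12452 genes. On simulated data for the D15 comparison, run on 11789 genes, 99 of 100 genes changed 2.5-fold and 99 of 100 changed 4-fold were recovered, with 3 other genes called. The changed genes were drawn from those with a mean log2(TPM + 1) above 3, so recovery at lower levels was not simulated.

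Named genes were *Kdm6a*, *Kdm6b*, *Kdm5c*, *Xist* and *Tsix*, the 12 largest rises and falls among called genes without overlap whose higher group averaged 5 TPM or more, and in each list up to 6 called members with the largest change and up to 2 uncalled members with the highest TPM. A few genes that this rule or the lists hold are not reported here by name. Members and lists were chosen with earlier results of these data known. Allelic shares were scaled to an even median autosomal gene. Replicate numbers did not pair the libraries: deviations of same-numbered libraries correlated at -0.16 between wt and KO at D15 and at 0.12 at D7. Alternatives covered the pseudocount, filters, scaling, prior variance, thresholds, the D15 libraries alone, duplicate rows, the replicate block and each replicate left out.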

Additional observations from a re-analysis of the deposited data

Results flagged for a closer look

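The change of KO against wt differed between D15 and D7 by the limma interaction for 903 genes, 484 with a more positive and 419 with a more negative change at D15, and the genes named in the text that are among them are given here with the difference on the log2 scale, D15 minus D7. No explanation was tested. Differences that rest on a group listed at 0 in both libraries, as for *Mir1934*, *Mir18b* and *Myl2*, are not given.

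Among primitive streak genes, the difference was *Mixl1* 4.201, *Mesp1* 4.17, *Fgf8* 3.9998, *Evx1* 3.06, *Wnt3* 2.19, *Cdx2* 2.11, *Eomes* 2.06 and *T* 1.53. In the cardiac list it was *Hand2* 2.26, *Hand1* 2.17, *Tbx20* 1.96, *Tnnc1* 1.83, *Myl7* 1.604 and *Gata4* -1.57. For endothelial genes it came to *Kdr* 3.78, *Etv2* 3.72 and *Sox18* 1.61. Among blood genes, values were *Tal1* 1.83 and *Gata1* 1.07. Among endoderm factor genes, the difference was *Cxcr4* 2.02, *Sox17* -1.56, *Ihh* -2.14, *Sox7* -2.32 and *Gata6* -2.52. In the visceral endoderm list it was *Apoc2* -1.06, *Apoa1* -1.58, *Afp* -1.82, *Apob* -2.01, *Cubn* -2.16 and *Ttr* -2.32. For parietal endoderm and basement membrane genes it came to *Pth1r* -2.37, *Col4a1* -2.63, *Col4a2* -2.69 and *Lama1* -2.88. Among epithelial genes, values were *Krt19* 1.55 and *Krt7* 1.01. Among trophoblast genes, the difference was *Rhox9* 3.14, *Elf5* 2.73 and *Bmp8b* 1.6001. In the fibroblast and stroma list it was *Thy1* 1.66, *Col1a1* 1.05 and *Pdgfra* -1.61. For Wnt genes it came to *Wnt5a* 2.02, *Lef1* 1.93, *Tcf7* 1.25, *Rspo3* 1.25 and *Fzd7* 1.02. Among TGF-β, BMP and Nodal genes, values were *Msx1* 3.30, *Msx2* 2.96, *Lefty1* 1.80, *Bmp4* 1.62 and *Lefty2* 1.33. Among glucose and hypoxia genes, the difference was *Bnip3* 2.24 and *Ndrg1* 1.05. In the MHC class I and interferon list it was *Psmb8* 2.08, *Tap2* 1.66 and *B2m* -1.36. For imprinted genes it came to *Mest* 1.49, *Magel2* 1.38, *Phlda2* 1.36, *H19* 1.20 and *Plagl1* 1.01. Among germline genes, values were *Dnd1* 1.90 and *Dazl* 1.15. Among Notch genes, the difference was *Dll3* 2.39, *Hey1* 1.63 and *Nrarp* 1.17. In the EMT list it was *Cdh11* 2.11 and *Cdh2* 1.06. For smooth muscle genes it came to *Acta2* -2.59. Among other genes, values were *Xist* 1.85, *Cyp26a1* 1.84, *Egr1* 1.39, *Fgfr2* 1.26, *Hoxd9* 1.24, *Gas1* 1.09, *Klhl13* 1.07, *Acta1* -1.03, *Trib3* -1.10 and *Gm5424* -4.52.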

How the results depend on the processing

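The number of genes called at D15 (1338) lay between 1276 and 1704 under the other filters, pseudocount, scaling, prior variance, FDR of 0.05 and leaving out each replicate, and at 915 of 9607 genes without chromosomes 1, 5, 12, 19 and X, an alternative chosen after seeing the data, as was leaving out small RNA genes. With no minimum fold 9745 genes were called, 529 list genes and 8369 genes for the difference between the days. The lower share of the calls (28.6%) was 36.6% with rescaled libraries, 25.0% without small RNA genes, 25.1% without those chromosomes, 39.6% with no minimum fold and 26.1% to 30.2% on leaving out a replicate. The X minus autosome difference (-0.64) was -0.70 with a pseudocount of 0.1 TPM, -0.18 with no filter on low values, -0.60 with a filter of 1 TPM and -0.67 to -0.63 on leaving out a replicate. The BL6 difference on X (45.7 points) was 46.1 from 10 TPM on, 79.2 with allelic values as deposited, and 45.68 to 45.73 on leaving out a replicate. Rescaling turned the sign of 4 genes that were not called, *Egfl7* (-0.0438), *Rhox9* (-0.0123), *Hes1* (-0.0435) and *Rbbp7* (-0.0392), and the causes were not tested. Of 191 named genes called at D15, 5 lost the call under at least 1 alternative, and 10 uncalled named genes gained it, among them *Fn1*, *Pou5f1*, *Trf*, *Maoa*, *Sox7* and *Xist*. The replicate block called 1340 genes at D15 and 906 for the days, and the crossed pairing, added after seeing the data, 1342 and 909. Unknown depth limits the genes at low TPM most.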
